A study of Mus musculus with 6 samples.

Results

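Ubd encodes FAT10, a ubiquitin-like modifier, and this account follows it together with the genes of MHC class I antigen presentation and of the interferon response in wild type and Setd2 knockout mouse embryonic stem cells (mESCs). The set lists 34 genes. Ubd itself was chosen by its higher signal in the knockout arrays of this very contrast, so its difference is a description and supports nothing; the other members were chosen by their roles, to ask whether antigen processing or interferon genes are higher along with Ubd. Members were found as probe sets whose platform annotation names one gene, that gene being on the list. This gave 59 probe sets for 31 of the 34 genes, out of 18193 genes named in this way on the array. H2-T23, Psme2 and Isg15 are named only beside other genes and were left out of the member values.

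Gene expression was measured on 6 Affymetrix mouse genome arrays, 3 per genotype. Both genotypes were mESCs of 129SV/C57BL/6 strain background without further treatment, and the knockout cells lacked Setd2, an enzyme that writes a methyl mark of histone H3 found along transcribed genes. The cells had been grown on feeder cells, which were depleted by a short plating on gelatin and a passage without feeders, so RNA of residual feeders can be present in both groups. The labels call the arrays biological repeats and do not say how many cell lines or clones stand behind a genotype, so the p-values measure only the spread between these arrays. Values are log2 MAS5 signals, in which a difference of 1 is a ratio of 2 between signals.

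FAT10 is attached to target proteins and marks them for the proteasome, and in most tissues it is low until interferon gamma and tumour necrosis factor induce it. The same cytokines induce the immunoproteasome, the peptide transporter of the endoplasmic reticulum and the MHC class I chains, which together cut, carry and display peptides. Pluripotent stem cells are known for low class I display and a weak response to interferon.

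The arrays were checked before the members. Setd2 read 10.31, 10.30 and 10.31 on the wild type arrays and 9.37, 9.50 and 9.60 on the knockout arrays, and it fell by 0.82 ± 0.12 (SE) on the log2 scale (limma adjusted p = 0.0272). The adjusted p was 0.0704 to 0.214 when any one array other than knockout replicate 1 was left out. Which exons were removed is not in the labels, and whether the probes lie in them was not checked. The Y-linked gene Eif2s3y had a mean of 4.92 ± 0.40 (SD, n = 3) on wild type arrays and of 11.30 ± 0.23 (SD, n = 3) on knockout arrays, so the lines differ in more than Setd2, and a difference between genotypes cannot be told apart from one between lines. All 9 pluripotency markers with a probe set were bright, with a mean log2 signal of 13.13 to 13.22 on wild type and 12.86 to 13.00 on knockout arrays, and 1 of them, Zfp42 on chromosome 8, fell by 1.99. Of 21 tested fibroblast markers 0 passed limma's threshold of 0.05 on the adjusted p (2 at an unadjusted p under 0.05), and 2, Fn1 and Pdgfrb, were higher with the replicate number as a block. Their summed signal ran from 11650 to 21810 on the wild type and from 13420 to 20920 on the knockout arrays. Of 12 tested leukocyte markers 0 passed (1 unadjusted), with summed signals of 3791 to 4597 and 3325 to 4397. No marker of the 3 lists was at 0 on any array.

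Ubd read 4.92, 4.54 and 3.48 on the wild type arrays numbered 1, 2 and 3, and 7.24, 6.76 and 7.04 on the knockout arrays. The genotypes did not overlap, and the mean signal was 6.51-fold higher (7.01 ± 0.24 against 4.31 ± 0.74, mean ± SD, n = 3 each). Between arrays of the same number the difference was 2.33, 2.22 and 3.56, so the array numbered 3 added most through its low wild type value. The array medians lay between 6.09 and 6.22, so Ubd was below the median signal in wild type cells and above it in knockout cells. Its wild type mean lay below the value of 5.27 that a probe set needed, as a mean over all 6 arrays, to be tested, so it was tested only through its knockout values and the size of the fold rests on dim signals. Leaving out single arrays moved the difference between 2.29 and 3.0. In RNA of whole cultures, more cells with Ubd transcript and more transcript per cell cannot be told apart.

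Ubd lies on chromosome 17, on which H2-K1, H2-D1, Tap1, Tap2, Tapbp, Psmb8 and Psmb9 also lie. Stretches of 3 promoters are shown because they belong to Ubd and to a regulator, Irf1, and a class I chain, H2-K1, described below. With the replicate block Irf1 was higher, and so was 1 of the 4 tested probe sets of H2-K1, though not its brightest. Each runs from 250 bases before to 50 bases after the RefSeq start in GRCm38.p6, 5′ to 3′ on the gene's strand: Ubd at chr17:37193642-37193941 (plus strand), Irf1 at chr11:53769764-53770063 (plus) and H2-K1 at chr17:34000298-34000597 (minus). Capitals mark letters that match a searched motif.
Ubd: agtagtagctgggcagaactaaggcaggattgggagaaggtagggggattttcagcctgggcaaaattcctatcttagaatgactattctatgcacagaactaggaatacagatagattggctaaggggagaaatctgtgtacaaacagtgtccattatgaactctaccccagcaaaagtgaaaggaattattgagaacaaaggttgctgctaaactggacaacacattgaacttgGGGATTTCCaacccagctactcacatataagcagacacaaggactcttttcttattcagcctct
Irf1: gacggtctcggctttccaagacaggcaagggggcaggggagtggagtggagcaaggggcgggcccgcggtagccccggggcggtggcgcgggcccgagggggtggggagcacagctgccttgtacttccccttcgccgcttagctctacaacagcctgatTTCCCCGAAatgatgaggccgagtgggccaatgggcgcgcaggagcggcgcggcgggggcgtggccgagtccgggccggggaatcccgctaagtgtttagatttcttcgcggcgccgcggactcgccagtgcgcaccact
H2-K1: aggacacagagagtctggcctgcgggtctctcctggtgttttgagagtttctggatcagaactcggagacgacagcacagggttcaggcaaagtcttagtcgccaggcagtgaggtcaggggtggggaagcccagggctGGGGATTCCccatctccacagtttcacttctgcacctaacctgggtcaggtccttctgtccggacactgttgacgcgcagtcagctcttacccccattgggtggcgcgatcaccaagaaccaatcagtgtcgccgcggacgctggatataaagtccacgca

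In the Ubd window the capitals are a match to GGNNNTTCC, searched as the last 9 letters of an NF-kB motif. The match begins 14 bases before the start. H2-K1 has a match to the same letters 111 bases before its start. The Irf1 window has a match to TTCNNNGAA, the GAS element of promoters that interferon gamma induces, 90 bases before the start. Neither the Ubd nor the Irf1 nor the H2-K1 window holds the exact letters GAAANNGAA, searched as the core of the interferon-stimulated response element (ISRE). Other spellings of the ISRE, GAS and NF-kB motifs were not searched, so a missing match does not show that a window lacks the element. In the H2-K1 window the letters tttcacttc, read on the other strand, hold GAA ahead of GAAA, an order the search did not cover. Motifs were searched on both strands, and a match is a stretch of letters, not a measured binding site. Of the 32 member genes with a window, 12 held the ISRE core, 8 the GAS letters and 10 the NF-kB letters, against 8.57%, 8.47% and 18.4% of the first windows of 27025 genes. Of the other members called with the replicate block, Ifngr1, Ifitm1 and Psmb10 held no searched motif in their windows. The window of Ddx58 held the ISRE core. The shown matches overlap no other searched motif.

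Apart from Ubd, the members did not pass the test in the fit without a block. Of 59 member probe sets, 41 for 27 genes were bright enough to be tested. In limma 1 was called higher and 0 lower, where 0.648% of all 27022 tested probe sets were called (0.274% higher and 0.374% lower). The 1 was Ubd, through which it had been chosen. With wild type replicate 2 or 3 or knockout replicate 2 or 3 left out, or with no intensity trend, 0 member probe sets were called. Of the 40 others 0 were called and 5 had an unadjusted p under 0.05, a share of 12.5% against 11.7% of all tested probe sets. Their adjusted p ran from 0.194 to 0.997. The 26 tested genes other than Ubd, each at its brightest tested probe set, had differences from -0.61 to 0.68 with a median of 0.16, and 20 of them lay above 0. The median over all 12915 tested genes was -0.00056 with 49.9% above 0. The member median moved to 0.072 without wild type replicate 2 and to 0.050 without knockout replicate 1.

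The arrays carry the numbers 1 to 3 in both genotypes. Both arrays numbered 1 deviated together from their genotype means (correlation r = 0.50), so a fit with the number as a block was made too. Numbers 2 and 3 were hardly told apart, with r of 0.23 and 0.24 within a number and 0.23 and 0.17 between them. The fit with the block called 3.49% of all tested probe sets higher and 4.39% lower, 7.88% in all. Of the 40 member probe sets other than Ubd, 4 were higher, for H2-K1 (1 of its 4 tested probe sets), Irf1, Ifngr1 and Ifitm1, and 2 were lower, for Psmb10 and Ddx58. These shares were 10% and 5.0%. In the count of arrays, 4 of the 41 tested member probe sets, Ubd among them, had all 3 knockout values above all 3 wild type values (9.76%, against 9.16% of all tested probe sets), and 2 had all 3 below (4.88% against 8.99%). Without Ubd, which was chosen by this contrast, 3 of 40 (7.5%) lay above and 2 of 40 (5.0%) below.

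**Figure D1:**
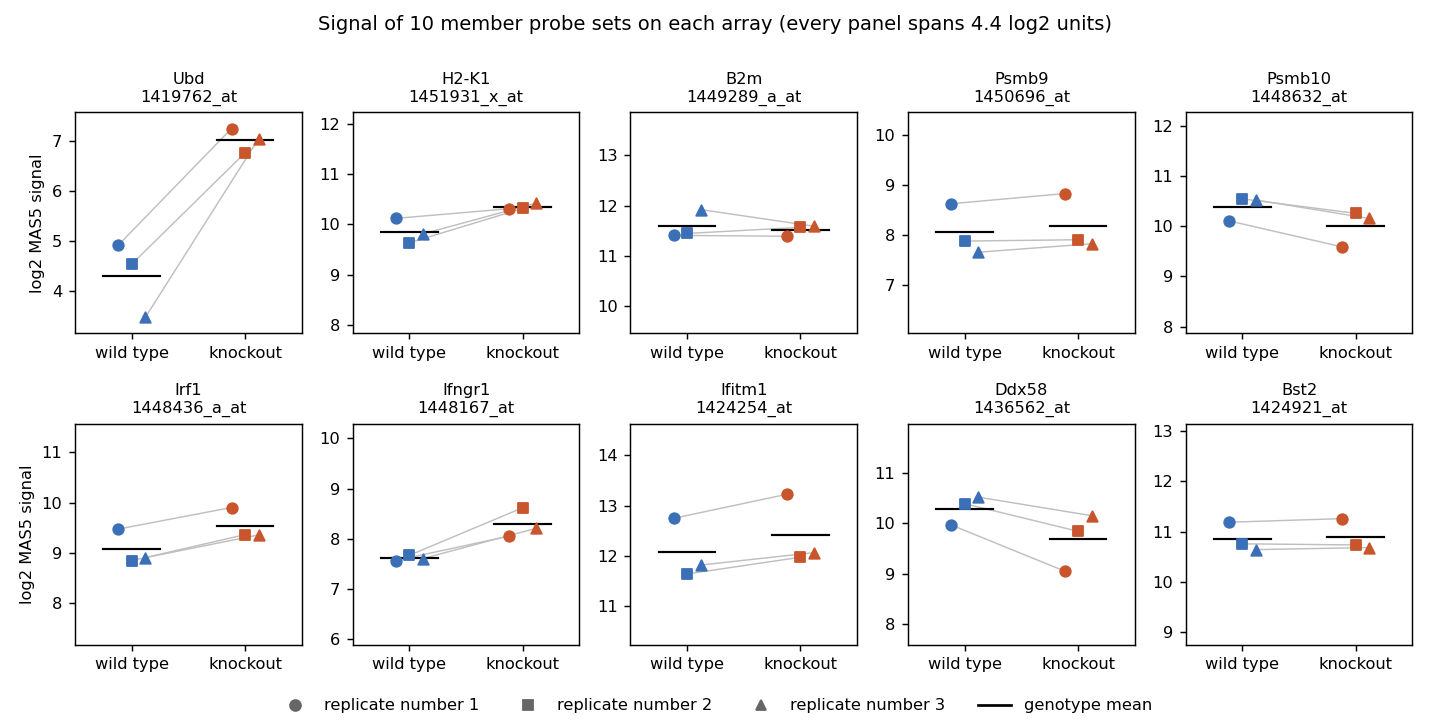
Log2 MAS5 signal of 10 member probe sets on each array, with wild type in blue and knockout in orange, 1 marker shape per replicate number, grey lines joining arrays of one number and black bars at the genotype means. Every panel spans 4.4 log2 units. Ubd went from a mean of 4.31 to 7.01, while the other 9 probe sets differed by -0.61 to 0.68.

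The MHC class I chains were bright in both genotypes. H2-K1 and H2-D1 encode the classical heavy chains that bind peptide, and B2m the light chain that both need. B2m read 11.41, 11.45 and 11.92 on wild type and 11.39, 11.57 and 11.59 on knockout arrays. The genotypes overlapped, with a difference of -0.08 (95% interval -0.42 to 0.26; limma adjusted p = 0.903). Its second probe set gave -0.09 (adjusted p = 0.892). H2-D1 at its brightest probe set read 10.05, 10.44 and 10.72 on wild type and 10.52, 10.54 and 10.76 on knockout arrays, a difference of 0.20 (-0.20 to 0.61; adjusted p = 0.741). The knockout values lay inside or just above the wild type range. Its 3 other tested probe sets differed by 0.20, 0.33 and 0.22. A further one, too dim to be tested, read 5.34, 3.84 and 4.98 on wild type and 5.40, 5.78 and 5.69 on knockout arrays, with all knockout arrays above.

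H2-K1 differed by probe set. The brightest read 10.81, 10.69 and 10.77 on wild type and 11.20, 10.89 and 10.66 on knockout arrays, a difference of 0.16 (-0.18 to 0.49; adjusted p = 0.754). The second brightest read 10.12, 9.64 and 9.81 on wild type and 10.31, 10.32 and 10.43 on knockout arrays. Here all knockout values lay above all wild type values, the signal was 1.41-fold higher, and the adjusted p was 0.225 without and 0.0203 with the replicate block. The other tested probe sets of H2-K1 differed by 0.13 and 0.30 (adjusted p = 0.841 and 0.780). All 4 are of the kind whose probes also match other transcripts, and class I genes are near copies of one another, so signal cannot be assigned to one heavy chain with certainty.

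The genes that load class I molecules showed small differences. Tap1 and Tap2 form the transporter that brings peptides into the endoplasmic reticulum, Tapbp (tapasin) holds it next to the empty class I molecule, and Erap1 trims the peptides. Tap1 read 6.92, 7.0 and 6.73 on wild type and 7.73, 6.50 and 7.23 on knockout arrays. Its knockout arrays spread on both sides of the wild type ones, with a difference of 0.27 (-0.44 to 0.98; adjusted p = 0.814). Tap2 differed by 0.08 (-0.46 to 0.63), Tapbp by 0.29 (-0.20 to 0.77) and Erap1 by 0.10 (-0.47 to 0.68). A second, dimmer tested probe set of Tapbp differed by -0.13 (-1.07 to 0.80; limma adjusted p = 0.943). Of these 4 genes 0 passed in limma with or without the block, and 0 had an unadjusted p under 0.05 in the fit without it. The other probe sets of Tap1 and Erap1 were too dim to be tested. Those of Tap1 differed by -0.71, 0.44 and 1.41, the last with all knockout arrays above all wild type arrays, and that of Erap1 by -1.05.

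Of the 4 tested genes of the immunoproteasome and its activator, 0 were called in limma without the block (0 unadjusted) and 1, Psmb10, was lower with it. With the block 5.75% of all 12915 tested genes were lower. Psmb8, Psmb9 and Psmb10 replace the constitutive catalytic subunits when interferon acts, and Psme1 is a subunit of the activator that caps the proteasome core. Psmb8 read 5.77, 5.25 and 4.92 on wild type and 6.86, 6.11 and 4.87 on knockout arrays, so the knockout arrays ran from above the wild type range to below it (difference 0.63, -0.54 to 1.81; adjusted p = 0.717). Its other probe set, too dim to be tested, read 1.94, 2.08 and 4.16 on wild type and 4.18, 3.47 and 5.22 on knockout arrays. There the genotypes overlapped, and the knockout array was higher within each number, by 2.24, 1.38 and 1.06 (mean difference 1.56). Psmb9 read 8.63, 7.88 and 7.66 against 8.83, 7.91 and 7.83. Its difference of 0.13 (-0.63 to 0.90) was far smaller than the gap between the array numbered 1 and the others in each genotype.

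Psmb10 read 10.11, 10.54 and 10.52 on wild type and 9.59, 10.26 and 10.15 on knockout arrays. Within a number the knockout array was lower each time, by 0.52, 0.29 and 0.37, and the adjusted p was 0.520 without and 0.0246 with the replicate block. Psmb10 lies on chromosome 8, whose 709 tested genes had a median difference of -0.34, and what that shift contributes was not tested. The other members on chromosome 8 were Nlrc5 (0.32), Bst2 (0.03) and Irf2, which was too dim to be tested. Psme1 differed by -0.19 (-0.55 to 0.17; adjusted p = 0.723).

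**Figure D2:**
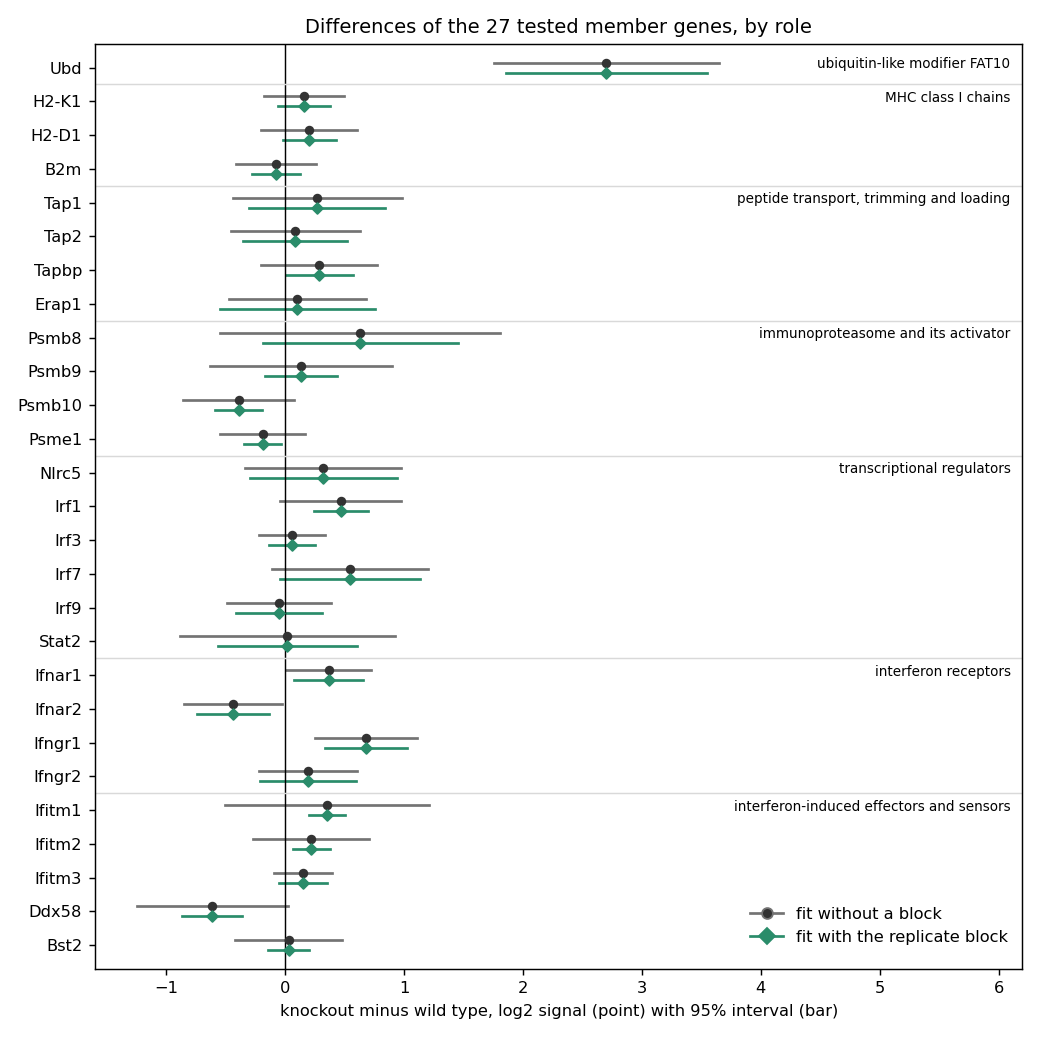
Knockout minus wild type differences in log2 signal for the 27 tested member genes, each at its brightest tested probe set, with 95% intervals from the fit without (grey) and with (green) the replicate block. Ubd stands at 2.70 and the other genes between -0.61 and 0.68, and without the block 23 of the 27 intervals hold 0.

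Among the regulators, Irf1 was the 1 gene called with the replicate block. Irf1 is a transcription factor that interferon gamma induces, and it acts on class I and immunoproteasome promoters. It read 9.47, 8.84 and 8.90 on wild type and 9.90, 9.36 and 9.36 on knockout arrays. The wild type array numbered 1 lay above the knockout arrays numbered 2 and 3, so the genotypes overlap, but within a number the knockout array was higher by 0.43, 0.52 and 0.45. The mean signal was 1.38-fold higher, with an adjusted p of 0.471 without and 0.0194 with the replicate block.

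Irf7, which amplifies type I interferon production, read 5.83, 6.48 and 5.96 on wild type and 6.28, 6.70 and 6.92 on knockout arrays, a difference of 0.54 (-0.11 to 1.2; adjusted p = 0.525, and 0.259 with the block). Nlrc5, the transactivator of class I genes, read 5.66, 6.57 and 6.34 against 6.57, 6.52 and 6.45. It differed by 0.32 (-0.34 to 0.98), and the wild type array at 5.66 stood apart from the other 5. Irf3, the factor downstream of nucleic acid sensors, differed by 0.06 (-0.22 to 0.33). Irf9 and Stat2, which form the complex that binds the ISRE, differed by -0.05 (-0.49 to 0.39) and 0.02 (-0.88 to 0.92). Irf2, a factor that competes with Irf1 on DNA, was not tested. It read 4.25, 4.25 and 4.29 on wild type and 4.42, 4.54 and 5.11 on knockout arrays, all below the filter value.

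Of the 4 interferon receptor genes, 0 were called in limma without the block, 3 had an unadjusted p under 0.05, and 1, Ifngr1, was higher with the block. Of the 3, Ifngr1 and Ifnar1 were higher and Ifnar2 was lower. Over all 12915 tested genes 13.4% had an unadjusted p under 0.05, and 4.13% were higher with the block. A list of 4 genes is too short to set against these shares. Ifngr1, the ligand-binding chain of the interferon gamma receptor, read 7.57, 7.67 and 7.61 on wild type and 8.05, 8.62 and 8.21 on knockout arrays. All knockout arrays lay above all wild type arrays, and the signal was 1.6-fold higher (adjusted p = 0.194, and 0.0232 with the replicate block). Ifngr2, the signalling chain of the same receptor, differed by 0.19 (-0.22 to 0.60; adjusted p = 0.765). No test of the difference between the chains was made.

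The chains of the type I interferon receptor went in opposite directions at their brightest probe sets, neither past the threshold. Ifnar1 read 8.33, 8.45 and 8.72 on wild type and 8.84, 8.93 and 8.83 on knockout arrays, with all knockout arrays above (difference 0.37, 0.01 to 0.72; adjusted p = 0.418, and 0.125 with the block). Ifnar2 read 9.0, 8.54 and 8.48 on wild type and 8.30, 8.22 and 8.19 on knockout arrays, with all knockout arrays below (-0.44, -0.85 to -0.03; adjusted p = 0.389, and 0.0806 with the block). The probe sets of Ifnar2 disagreed. Another tested one differed by 0.29, and one too dim to be tested read 3.68, 4.77 and 4.17 on wild type and 5.44, 6.03 and 5.69 on knockout arrays, a difference of 1.51 with an adjusted p of 0.330 in the fit without a filter. The level of the Ifnar2 transcript therefore has no one direction in these data.

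The effectors that interferon induces were already bright or were too dim to measure. Ifitm1, Ifitm2 and Ifitm3 are membrane proteins that hinder virus entry, and Ifitm1 and Ifitm3 are also known from germ cells and stem cells. Ifitm3 read 13.15, 13.01 and 13.42 on wild type and 13.32, 13.44 and 13.28 on knockout arrays, a difference of 0.15 (-0.10 to 0.40; adjusted p = 0.671). Ifitm1 read 12.75, 11.64 and 11.82 against 13.23, 11.97 and 12.06. Within a number its knockout array was higher by 0.48, 0.33 and 0.25, and the adjusted p was 0.795 without and 0.0115 with the replicate block. Without knockout replicate 1 and without a block the mean difference of Ifitm1 was -0.049. Ifitm2 differed by 0.22 (-0.27 to 0.71; adjusted p = 0.774, and 0.0875 with the block).

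Bst2 (tetherin), which holds budding viruses at the cell surface, read 11.19, 10.76 and 10.64 on wild type and 11.26, 10.74 and 10.68 on knockout arrays, a difference of 0.03 (-0.42 to 0.48). The values within each number were nearly alike. Ddx58 (RIG-I), a sensor of viral RNA, read 9.97, 10.39 and 10.52 on wild type and 9.05, 9.84 and 10.15 on knockout arrays. It was lower within each number, by 0.92, 0.55 and 0.37, and its signal was 1.53-fold lower (adjusted p = 0.448, and 0.00884 with the replicate block). Its other tested probe set differed by -0.53 (adjusted p = 0.405, and 0.0722 with the block), with all knockout arrays below all wild type arrays. The second RNA sensor, Ifih1 (MDA5), and the effectors Isg20 and Oasl2 had no probe set that passed the filter. Ifih1 ran from 4.19 to 4.62 on wild type and from 2.72 to 4.88 on knockout arrays, Isg20 from 3.26 to 4.95 and from 3.09 to 5.39, and Oasl2 from 2.89 to 4.48 and from 3.42 to 4.87. For these 3 genes the knockout range reached past the wild type range on both sides or overlapped it, and a change could be missed at such signals.

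For many members the arrays numbered 1 stood apart in both genotypes. On 11 of the 41 tested member probe sets (26.8%) both arrays numbered 1 lay above the other 4 arrays, against 19.8% of all tested probe sets, and on 3 (7.32%) both lay below, against 16.2%. At their brightest probe sets the genes above were Tap2, Tapbp, Psmb9, Psme1, Irf1, Irf3, Stat2, Ifitm1, Ifitm2 and Bst2. The mean of the arrays numbered 1 exceeded the mean of the other 4 by 1.11 for Ifitm1, 0.99 for Stat2, 0.91 for Psmb9, 0.60 for Ifitm2, 0.57 for Irf1 and 0.52 for Bst2. B2m and Psmb10 lay below on both arrays numbered 1. Ubd could not show this split, because all its knockout values lay above all its wild type values, and it was chosen by that contrast.

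Fibroblast markers moved the other way by number. Of the 21 tested markers, 15 were lower on both arrays numbered 1 than on the other 4, and their mean log2 signal, 7.54 (wild type) and 7.34 (knockout) for number 1, lay at 8.21 to 8.63 elsewhere. Their part in the member differences was not tested. The labels do not say what a number shares.

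**Figure D3:**
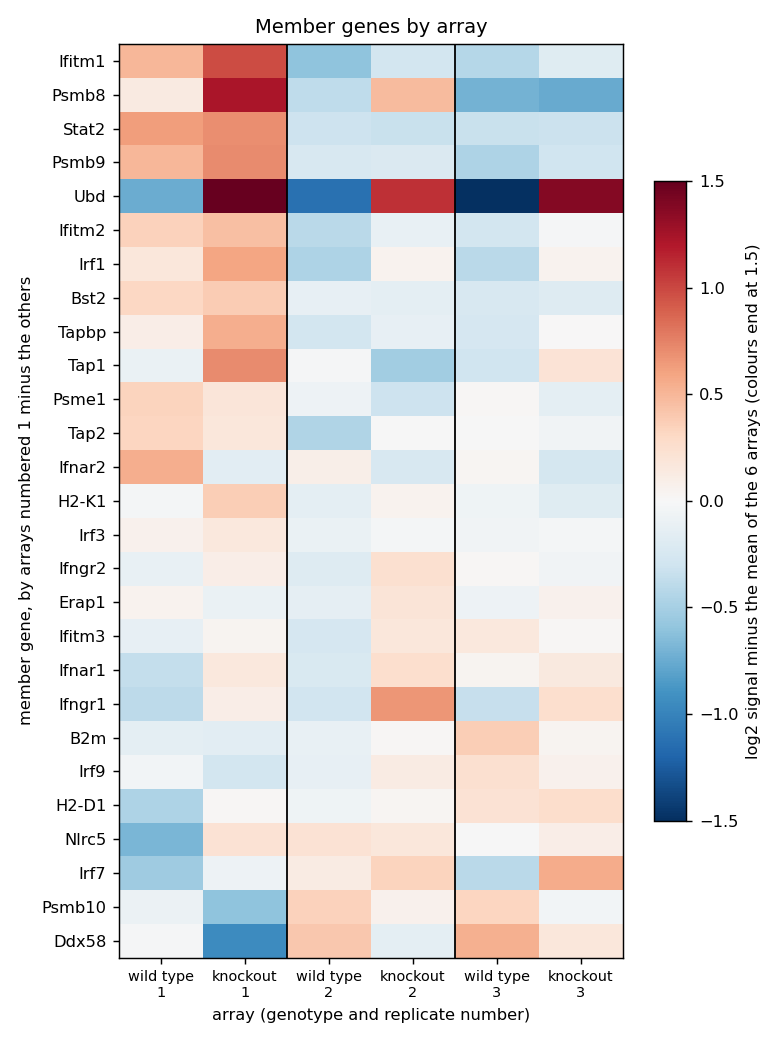
Each tested member gene by array, as log2 signal minus its mean over the 6 arrays, with arrays of one replicate number side by side and genes ordered by how far the arrays numbered 1 exceed the others. Ifitm1, Stat2 and Psmb9 near the top were high on both arrays numbered 1, while Ubd alternates between wild type and knockout at every number; 2 of its 6 values run past the ends of the colour scale at 1.5.

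The other genes of these pathways were taken from 9 lists. Trim34a, a member of a TRIM family that interferon induces, was the 1 gene called among them. It read 7.10, 7.18 and 7.14 on wild type and 3.71, 5.07 and 4.35 on knockout arrays, and fell by 2.76 on the log2 scale (95% interval -3.62 to -1.90; limma adjusted p = 0.0212, and 0.00136 with the block). The knockout mean of Trim34a, 4.38, lay below the filter value, so it was tested only through its wild type values. The size of its fall therefore rests on dim signals. No probe set of the 9 lists was called without wild type replicate 1, 2 or 3, without knockout replicate 3 or without the intensity trend. Among 43 tested interferon-induced genes 0 rose and 1 fell, 5 had an unadjusted p under 0.05, and the list median was -0.04. Over all 12915 tested genes 13.4% had an unadjusted p under 0.05. With the block 1 of the 43 was higher and 2 were lower, where 4.13% and 5.75% of all tested genes were. The 1 was Sp110, a nuclear body gene, which read 4.31, 5.11 and 4.55 against 6.30, 6.2 and 6.2 (difference 1.58; adjusted p = 0.0969, and 0.0312 with the block). The wild type mean of Sp110, 4.66, lay below the filter value, so the size of its difference rests on dim signals too. The 2 lower genes were Trim34a and Parp9 (-0.63; adjusted p = 0.414, and 0.0130 with the block).

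The lists around FAT10 and the proteasome held 0 genes past limma's threshold. Among all 12915 tested genes 13.4% had an unadjusted p under 0.05, and with the block 4.13% were higher and 5.75% lower. The lists, of 4 to 16 genes, are too short to set against these shares. Of 4 genes that conjugate or bind FAT10, 1 was higher with the block, Hdac6, which carries FAT10-marked proteins to aggresomes (difference 0.51; adjusted p = 0.287, and 0.00913 with the block). Uba6, the enzyme that activates FAT10, differed by -0.11 (-0.33 to 0.12). Among 12 other ubiquitin-like modifiers 0 were called (2 unadjusted), and the brightest, Fau and Sumo3, differed by 0.02 and -0.05. With the block Gabarapl1 was higher (0.50) and Gabarap and Gabarapl2 were lower (-0.39 and -0.40), all modifiers of autophagy. Gabarapl2 lies on chromosome 8, of whose 709 tested genes 270 were lower with the block, and the part of that shift was not tested. Among 16 constitutive proteasome genes 0 were called with or without the block (1 unadjusted in the fit without it), with a list median of 0.03. The brightest, Psma6 and Psmb4, differed by -0.06 and -0.01.

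The remaining 5 lists held 0 calls in limma too, with list medians from -0.13 to 0.05. Among all 12915 tested genes 13.4% had an unadjusted p under 0.05, and 5.75% were lower with the block. Of 11 class I-like chains and loading chaperones 1 had an unadjusted p under 0.05, and the chaperones Calr and Canx differed by -0.26 (-0.57 to 0.05) and 0.09 (-0.07 to 0.26). Of 9 MHC class II genes and regulators 0 did, with Rfxap and Rfx5 at 0.07 and -0.22. Of 17 interferon signalling genes 0 did, with the phosphatase gene Ptpn2 at -0.16 (-0.35 to 0.02) and the feedback inhibitor gene Socs3 at -0.00074 (-0.61 to 0.61). Of 12 nucleic acid sensing genes 1 did, Trim25, a ligase that activates RIG-I (-0.35; adjusted p = 0.275, and 0.0124 with the block), while Tbk1 differed by -0.02. Of 20 genes of TNF and NF-kB signalling 2 did, with Nfkbia, an inhibitor that NF-kB itself induces, at -0.17 (-0.63 to 0.30) and Birc2 at 0.09. With the block 1 of the last list was lower, Tradd (-0.69, limma adjusted p = 0.0170, and 0.335 without it). Tradd and Calr lie on chromosome 8, and the part of the shift on that chromosome was not tested.

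**Figure D4:**
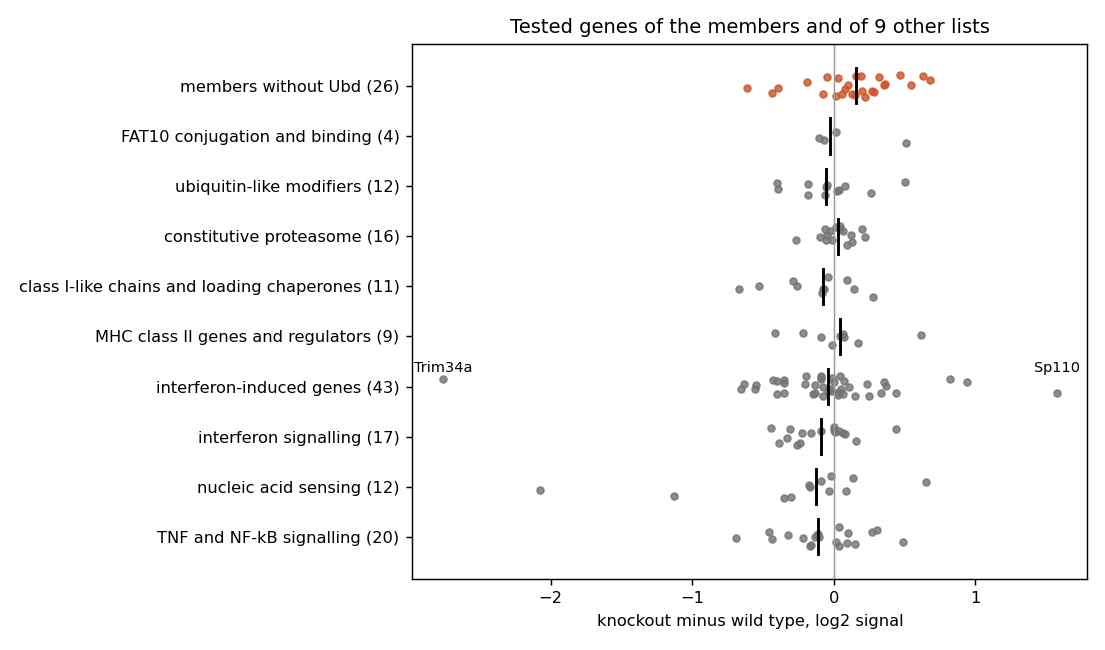
Knockout minus wild type differences in log2 signal for the 26 tested members other than Ubd (orange) and for the tested genes of 9 other lists (grey), with black bars at the list medians and the number of genes in parentheses. The member median is 0.16 and the other medians lie between -0.13 and 0.05. Trim34a at -2.76 is the 1 gene of the other lists called in limma. Sp110 at 1.58 passed with the replicate block and missed the threshold without it. Trim34a in knockout and Sp110 in wild type had means below the filter value, so each was tested only through the other genotype.

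The nearest tested genes on each side of Ubd were looked at as well. The 10 nearest named genes with a tested probe set on each side in the RefSeq gene order of chromosome 17 differed by -0.32 to 1.58, with 10 above 0 and 10 below, and 0 of the 20 were called in limma (2 unadjusted). Those before Ubd lay 10 to 52 genes away. After Ubd, H2-M3 lay 8 genes away and the others 80 to 121, so the genes next to Ubd were not covered. The class I-like gene H2-M3 differed by 0.28 and Gabbr1, a receptor subunit gene, by -0.09. With the block 2 of the 20 were higher, Cenpq (0.40) and Ptchd4 (1.58), which lay 102 and 107 genes away in that order. Over all 12915 tested genes 4.13% were higher with the block, and 20 genes are too few to set against that share. The wild type mean of Ptchd4, 4.96, lay below the filter value, and its genotypes overlapped. Ptchd4 alone set the upper end of the range, and the next largest difference was 0.47, for 9130008F23Rik.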

How the data were processed

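RNA of 6 samples was hybridised to Affymetrix mouse genome arrays. The authors deposited log2 signals made with MAS5, per the submitters' processing notes; the version is not given in the sources used here, and the log2 scale was read from the values, whose trimmed mean signal lay between 497.0 and 497.3 on all arrays. No genome build underlies the values. The signals were used as deposited, without further normalization. Of 45037 probe sets, 34945 named 1 gene, 932 several and 9160 none; symbols were updated for 34741 through gene identifiers against RefSeq (GRCm38.p6), which also gave gene order and promoters. Probe sets with a mean over 6 arrays below the 40th percentile (5.27) were not tested, which left 27022.

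Knockout minus wild type was fitted with limma 3.58.1 in R 4.3.3 (lmFit, eBayes with an intensity trend, two-sided, Benjamini-Hochberg over all tested probe sets, threshold 0.05), and the fit was tested on simulated data. A gene is represented by its brightest tested probe set. Values on all arrays were to be given for Ubd, for members called with or without the replicate block and for members with non-overlapping genotypes, and they are also given for other members whose level the text describes; from other lists, called genes or the 2 brightest were named. Genes called only with the block in those lists, and the genes on either side of Ubd that are named, were chosen after their values were seen. Members and lists were chosen with earlier results of these data known.

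The replicate numbers come from the titles. Deviations from the genotype means correlated between arrays of one number at r = 0.50, 0.23 and 0.24 across tested probe sets, and between arrays of unlike number at -0.37 to 0.23, so number 1 stands apart more clearly than 2 from 3. Detection calls were not used here. For arrays, their number limits the precision. Alternatives tried were the replicate block, other filters, quantile normalization, centring on array medians, no trend, a floor on low signals, leaving out chromosomes 8 and Y, and leaving out each array in turn.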

Additional observations from a re-analysis of the deposited data

How the results depend on the processing

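The fit without a block called 175 probe sets in all, 1 member (Ubd) and 1 probe set of the other lists (Trim34a). With the replicate block the counts were 2129, 7 and 17. Without the intensity trend they were 57, 0 and 0 (6 member and 27 other probe sets at an unadjusted p under 0.05). Without the filter on dim probe sets 0 members passed (8 unadjusted), and with a filter at the 60th percentile, which left Ubd and Trim34a untested, 0 members and 0 others passed (5 and 19 unadjusted). Leaving out each array in turn gave 31 to 431 probe sets in all, 0 to 1 members (4 to 8 unadjusted) and 0 to 3 others (16 to 41 unadjusted); the lowest count in all came without wild type replicate 3 and the highest without knockout replicate 1. The member median of 0.16 ran from 0.050 to 0.23 over these, from 0.12 to 0.18 over the other alternatives, and was 0.16 without Ubd. The Ubd difference ran from 2.29 to 3.0 over all alternatives that tested it. Ifitm1 ran from -0.049 to 0.69 when single arrays were left out, below 0 only without knockout replicate 1; the other member probe sets called with the block, and the brightest ones of Ifnar1 and Ifnar2, kept their direction under the alternatives run for them, which for Psmb10 leave out the one without chromosomes 8 and Y. Setd2 differed by -0.82 without the trend, no longer past the threshold (adjusted p = 0.0916), and by -0.87 to -0.76 when single arrays were left out, where it passed only with knockout replicate 1 as the array left out. The block changed no member call other than the 6 named beside their values. The causes were not tested.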

Other observations

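Members whose probe sets name several genes gave values outside the rule. The probe set of Isg15, an interferon-induced ubiquitin-like modifier, is shared with Gm9706. It read 5.87, 6.76 and 7.12 on wild type and 7.21, 7.45 and 7.01 on knockout arrays, a difference of 0.64 (95% interval -0.11 to 1.39; limma adjusted p = 0.513). The probe set shared by the proteasome activator gene Psme2 and its copy Psme2b read 10.90, 10.20 and 10.43 on wild type and 11.13, 10.51 and 10.63 on knockout arrays, a difference of 0.25 (adjusted p = 0.740). Both arrays numbered 1 lay above the other 4 on it. The brighter probe set of the nonclassical class I gene H2-T23, shared with H2-T-ps, differed by -0.20 (adjusted p = 0.825), and 1 probe set shared by H2-K1 and H2-D1 by 0.26 (adjusted p = 0.706).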
